A study of Homo sapiens with 8 samples.

Results

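A group of genes of tRNA methylation was followed through RNA sequencing of Kyse510 cells, a human oesophageal squamous cell carcinoma line, after inhibition or silencing of the histone-modifying enzymes LSD1 and G9a. They are TRMT1, TRMT5, TRMT6, TRMT61A, TRMT61B, TRMT10C, NSUN2, METTL1, WDR4 and TRDMT1, that is 10 of the 34164 genes listed in either of the 2 deposited expression tables. They were taken by gene name, and the group was chosen from measured values of these same libraries, so its values are given as a description and no test was run on them. Of the 10, 9 were expressed in all 8 libraries, and TRDMT1 was at or near 0.

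The first table held the parental cells: a vehicle library, a library exposed for 2 days to SP2509 (7 µM), which blocks LSD1, another exposed to UNC0642 (7 µM), which blocks G9a, and one exposed to the pair. A separate dose for the combination is not given in the sources used here. The second table held 2 stable Kyse510 lines, one with a doxycycline-inducible shRNA against LSD1 (shLSD1) and one with an inducible shRNA against G9a (shG9a), each without doxycycline (Dox) and after 2 days with it. Both lines came from a Tet-pLKO-puro lentiviral vector and puromycin selection, whether each is 1 clone or a pool was not stated, and no line with a non-targeting shRNA and Dox was analysed here. Each condition was 1 library, so a difference between libraries has no replicate check and the intervals below cover counting error only. The 3 inhibitor libraries share the same vehicle library.

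Transfer RNAs carry more chemical marks than any other class of RNA, and methyl groups are the commonest of them. Methyltransferases place these groups at fixed positions: those in the tRNA body keep the molecule folded and protect it from decay, and those in or next to the anticodon keep the ribosome in frame. Several of the enzymes work as a pair of a catalytic and a non-catalytic subunit, and some act in mitochondria, on the tRNAs that the mitochondrial genome encodes.

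Library totals were recovered from the steps of the FPKM values (fragments per kilobase of transcript, scaled to the library's total). They lay between 15662035 and 17889466 reads, and whether they count all mapped reads or those assigned to genes was not stated. KDM1A, the gene of LSD1, was at 26.0 FPKM without Dox and 6.29 with Dox in the shLSD1 line. EHMT2, the gene of G9a, was at 7.85 and 4.76 FPKM in the shG9a line. It was also lower with both inhibitors, at 5.38 FPKM against 11.1 with vehicle. KDM1A was higher with Dox in the shG9a line, from 26.4 to 35.8 FPKM. All other changes of these genes against their controls were within 1.3-fold. Of 10 squamous markers, 8 to 10 reached 1 FPKM in a library. KRT5 lay between 74.6 and 734 FPKM, TP63 between 18.3 and 127 and SOX2 between 0.313 and 38.8 FPKM. SOX2 was lowest with SP2509, against 18.3 FPKM with vehicle, and PKP1 lay between 0.193 and 1.13 FPKM. The summed level of the 10 ranged from 844 FPKM in the shLSD1 line with Dox to 5106 FPKM with SP2509. KRT17 alone was at 3716 FPKM with SP2509. Of 10 markers of other cell types, 8 or 9 were listed and 1 or 2 reached 1 FPKM, their summed level was between 3.62 and 6.81 FPKM, and PTPRC, the common leukocyte marker, did not pass 0.0425 FPKM. The part of the squamous markers' shifts in the results below was not tested.

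NSUN2 was the most abundant member in all 8 libraries, at 31.1 to 87.9 FPKM, and TRMT10C came next in each, at 19.4 to 43.0 FPKM. The other 7 expressed members lay between 2.79 and 18.8 FPKM. The lowest of the 9 was METTL1 or WDR4 in every library. In the vehicle library the order after TRMT10C was TRMT61B at 14.2, TRMT1 at 12.2, TRMT5 at 10.9, WDR4 at 10.03, TRMT6 at 9.77, TRMT61A at 7.45 and METTL1 at 7.04 FPKM. Among these 7 the counting intervals of neighbours in the order overlapped, except below TRMT6, where 8.99 to 10.6 FPKM for TRMT6 stood above 6.72 to 8.25 FPKM for TRMT61A. Summed over the 9 genes, the level was 164 FPKM in the vehicle library, 120 with SP2509, 186 with UNC0642 and 192 with both. In the knockdown table the sum went from 90.2 FPKM without Dox to 133 with it in the shLSD1 line, and from 99.1 to 146 in the shG9a line. In bulk RNA, fewer cells that express a gene and less of its RNA per cell cannot be told apart.

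**Figure D1:**
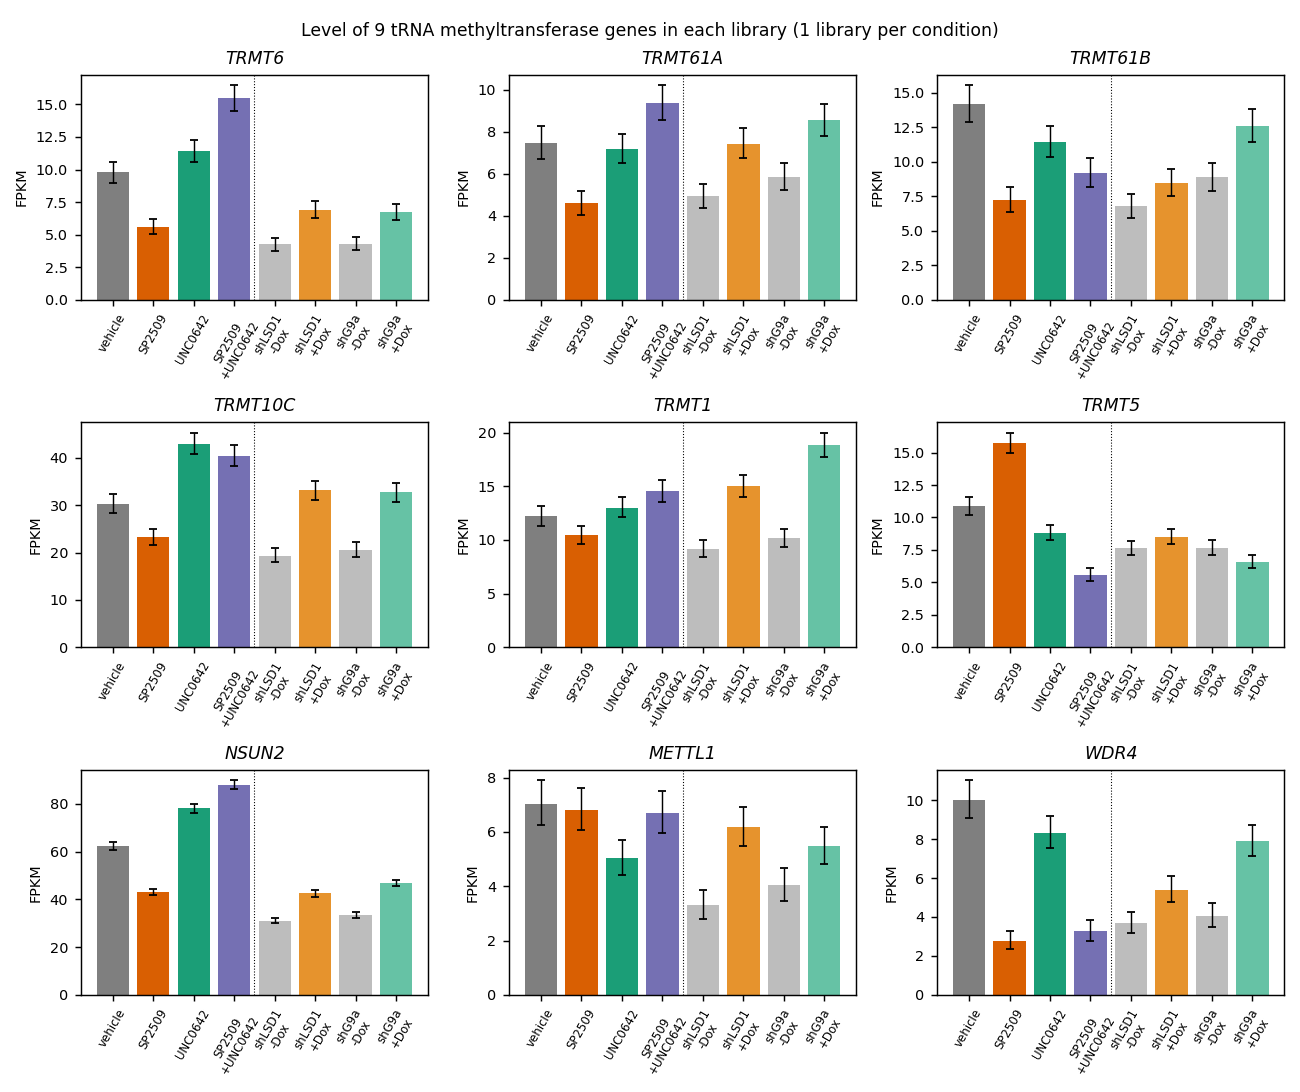
Level of the 9 expressed genes in FPKM (vertical axis, from 0, scaled per panel) in each of the 8 libraries, with the inhibitor table left and the knockdown table right of the dotted line; bars are single libraries and error bars are exact 95% Poisson intervals of the read count. In both lines the bar with Dox stands above the bar without it for every gene but TRMT5 in the shG9a line, and WDR4 is lowest with SP2509, at 2.79 FPKM.

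Fold changes were taken as log2 of (FPKM + 1) with treatment over (FPKM + 1) in the control, and a gene was counted as higher or lower at 1.3-fold or more with at least 1 FPKM in at least 1 of the 2 libraries. With SP2509, 5 of the 9 genes were lower and 1 was higher, while 39.9% of the 13342 genes measured were lower and 21% higher. With UNC0642, 1 was higher and 1 lower, against 18.2% and 16.9% of all genes. With both inhibitors 3 were higher and 3 lower, against 31.4% and 31.7%. In the shLSD1 line 7 were higher with Dox and 0 lower, against 24.8% and 12.3% of 12970 genes. In the shG9a line 7 were higher and 0 lower, against 32.9% and 17.6% of 13080 genes. The group had been picked with these changes known, so nothing is read from the distance between its counts and those shares. The median log2 fold change of the 9 genes was -0.52 with SP2509, -0.05 with UNC0642, 0.24 with both, 0.51 in the shLSD1 line and 0.48 in the shG9a line. Over all genes measured the medians were -0.21, -0.01, -0.02, 0.13 and 0.18. Centred on the median of well-expressed genes (5 FPKM or more in both libraries), 4 members instead of 7 were higher in the shG9a line, 5 instead of 7 in the shLSD1 line and 2 instead of 3 with both inhibitors. Just past the 1.3-fold limit were TRMT10C with both inhibitors, 1.32-fold higher, and METTL1 with UNC0642, 1.33-fold lower. Just short of it were TRMT10C with SP2509, 1.29-fold lower, and METTL1 in the shG9a line, 1.28-fold higher.

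**Figure D2:**
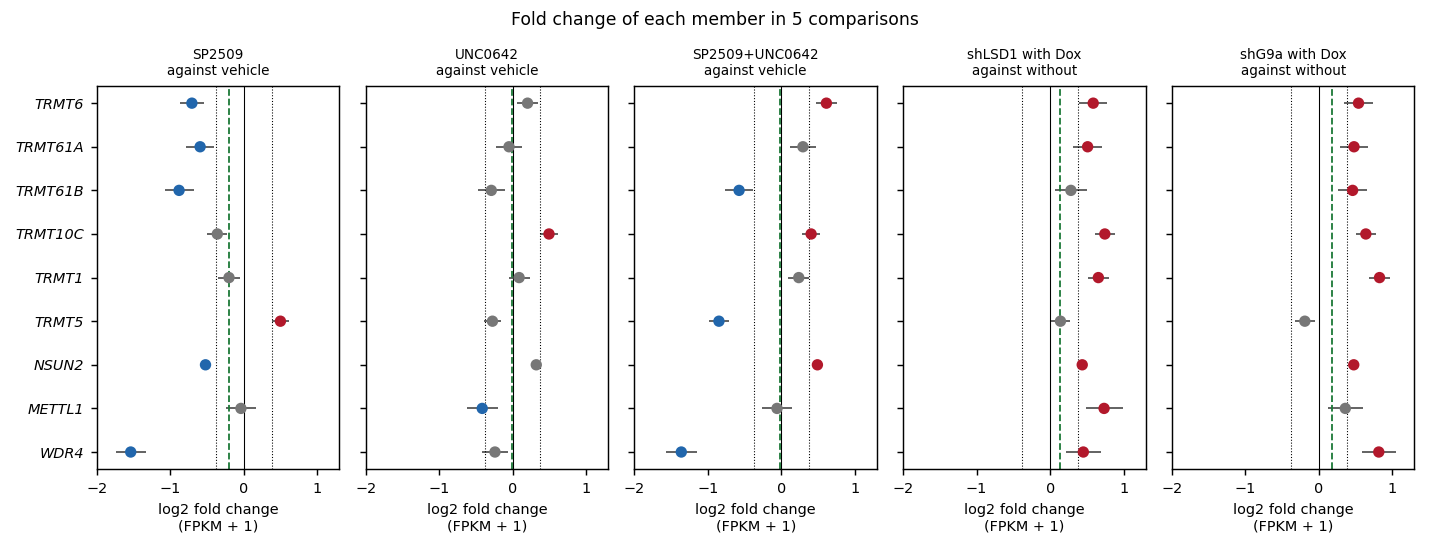
Log2 fold change (horizontal axis, FPKM + 1) of the 9 expressed genes in the 5 comparisons of a treated library with its control; red points are at least 1.3-fold higher, blue points at least 1.3-fold lower, grey points within, and horizontal bars are 95% intervals for counting error only. Dotted lines mark 1.3-fold and the green dashed line the median of all genes; WDR4 lies at -1.54 with SP2509 and -1.36 with both inhibitors, and all 9 points are above 0 in the shLSD1 line.

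The first role is 1-methyladenosine in the body of cytosolic tRNAs, which is made by TRMT61A, the catalytic subunit, together with TRMT6, its non-catalytic partner. TRMT6 (ENSG00000089195, chr20:5937235-5950558, minus strand, GRCh38 like all coordinates here) was at 9.77 FPKM in the vehicle library, 5.59 with SP2509, 11.4 with UNC0642 and 15.5 with both inhibitors. It was lowest with SP2509 alone and highest with the combination. In the knockdown table it went from 4.25 to 6.88 FPKM with Dox in the shLSD1 line and in the shG9a line from 4.31 to 6.71 FPKM. TRMT61A (ENSG00000166166, chr14:103529184-103537073, plus strand) was at 7.45, 4.59, 7.17 and 9.36 FPKM in the same order of inhibitor libraries. It went from 4.92 to 7.43 FPKM in shLSD1 cells and in the shG9a line from 5.84 to 8.53 FPKM, so both subunits were lowest of the inhibitor table with SP2509 and highest with the combination. With SP2509 the ratio of reads to vehicle was 0.572 for TRMT6 (95% counting interval 0.501 to 0.653) and 0.616 for TRMT61A (0.524 to 0.723). With both inhibitors it was 1.58 for TRMT6 (1.43 to 1.76) and 1.26 for TRMT61A (1.10 to 1.44), and on the log2 scale the change of TRMT61A, 0.29, did not reach 1.3-fold.

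The promoters of this pair are shown because the subunits moved the same way in 4 of the 5 comparisons and share 3 of 6 short motifs that were searched. RefSeq windows on GRCh38.p14 run from 250 bases before to 50 bases after the annotated start, chr20:5950484-5950783 on the minus strand for TRMT6 and chr14:103528946-103529245 on the plus strand for TRMT61A, printed 5′ to 3′ along the gene, and capitals mark every match on either strand to a short motif. The letters searched were CACGTG for the motif known as the E-box, CCAAT for the box of that name, CCGGAAG for the core bound by factors of the ETS family, ATGGCGG for the core bound by the factor YY1, GGGCGG for the box bound by the factor Sp1 and TGATGNAA for the element bound by the factor ATF4.
TRMT6: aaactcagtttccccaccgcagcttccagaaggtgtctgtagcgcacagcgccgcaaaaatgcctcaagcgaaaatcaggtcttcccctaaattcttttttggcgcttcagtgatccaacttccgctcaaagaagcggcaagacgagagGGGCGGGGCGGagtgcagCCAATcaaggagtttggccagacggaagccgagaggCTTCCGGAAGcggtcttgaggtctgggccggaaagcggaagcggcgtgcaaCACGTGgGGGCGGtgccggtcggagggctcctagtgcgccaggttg
TRMT61A: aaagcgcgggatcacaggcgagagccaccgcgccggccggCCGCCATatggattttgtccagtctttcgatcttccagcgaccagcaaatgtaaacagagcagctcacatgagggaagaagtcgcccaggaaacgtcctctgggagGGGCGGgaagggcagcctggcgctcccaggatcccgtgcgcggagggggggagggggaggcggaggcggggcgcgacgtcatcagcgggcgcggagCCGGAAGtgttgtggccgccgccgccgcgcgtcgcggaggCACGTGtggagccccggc
Both windows hold CACGTG, 4 bases after the start in TRMT6 and 32 bases after it in TRMT61A, and both hold CCGGAAG and GGGCGG. In TRMT6 the CCGGAAG matches of both strands overlap each other, as do 2 of its GGGCGG matches, and in no member did a match overlap one of another motif. The window was found for 8 of the 10 members, all but NSUN2 and METTL1. Windows follow the RefSeq start. For TRMT1, TRMT5 and TRDMT1 they do not reach the gene start given with the expression values, and they enter the shares all the same. CACGTG was in 2 of the 8 and in 7.26% of 35116 windows of the reference, CCGGAAG in 3 of 8 and 10.3%, ATGGCGG in 3 of 8 and 5.55%, GGGCGG in 6 of 8 and 45%, CCAAT in 3 of 8 and 34.6%, and TGATGNAA in 0 of 8 and 3.62%. A match describes the letters of the window and was not tested as a binding site.

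The level of TRMT6 relative to TRMT61A also differed between the tables. The ratio of their FPKM was 1.31 in the vehicle library, 1.22 with SP2509, 1.59 with UNC0642 and 1.65 with both inhibitors, and it was 0.864 and 0.926 without and with Dox in the shLSD1 line and 0.737 and 0.787 in the shG9a line. All 4 inhibitor-table ratios were above 1 and all 4 knockdown-table ratios below it. Within a knockdown line the counting intervals of the ratio without and with Dox overlapped, 0.730 to 1.02 and 0.810 to 1.06 for shLSD1 and 0.624 to 0.871 and 0.690 to 0.898 for shG9a. Parental cells against puromycin-selected lines and the first table against the second cannot be told apart in that contrast.

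The same modification in mitochondrial tRNAs is made by TRMT61B (ENSG00000171103, chr2:28849821-28870301, minus strand). It was at 14.2 FPKM in the vehicle library, 7.24 with SP2509, 11.4 with UNC0642 and 9.19 with both inhibitors. It went from 6.77 to 8.45 FPKM with Dox in the shLSD1 line and in the shG9a line from 8.88 to 12.6 FPKM. Unlike TRMT6 and TRMT61A it was below vehicle in all 3 inhibitor libraries, by 0.88 on the log2 scale with SP2509 and by 0.58 with the combination, and by 0.29 with UNC0642, the last of which was within 1.3-fold. Relative to TRMT61A its FPKM was 1.90-fold with vehicle and 0.982-fold with both inhibitors. A stretch of 791 bases of TRMT61B overlaps SPDYA on the other strand, and strand-specific counting was not stated, but SPDYA did not pass 1.16 FPKM in any library.

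TRMT10C (ENSG00000174173, chr3:101561862-101566446, plus strand) methylates purines in mitochondrial tRNAs and is also a subunit of mitochondrial RNase P, the enzyme that cuts tRNAs free at their 5′ ends. Its level was 30.3 FPKM in the vehicle library, 23.3 with SP2509, 43.0 with UNC0642 and 40.4 with both inhibitors, and Dox took it from 19.4 to 33.2 FPKM in the shLSD1 cells and from 20.7 to 32.7 in the shG9a line. It was above its control in 4 of the 5 comparisons and was the 1 member past 1.3-fold upwards with UNC0642, at a read ratio of 1.42 (1.31 to 1.55). HSD17B10, which binds TRMT10C in the RNase P complex, went from 37.8 to 19.6 FPKM with SP2509, from 30.3 to 58.9 in the shLSD1 line and in the shG9a line from 33.8 to 74.6 FPKM. The ratio of TRMT10C to HSD17B10 was 0.801 with vehicle, 1.19 with SP2509 and 1.35 with both inhibitors, and in the shG9a line it was 0.610 without Dox and 0.439 with it. ELAC2, which cuts the 3′ end, was at 11.7 and 5.91 FPKM with vehicle and SP2509, at 7.11 and 10.8 FPKM in the shLSD1 line and at 7.98 and 14.0 in the shG9a line. HSD17B10 and ELAC2 thus lay on the same side of their controls as TRMT10C with SP2509 and in both knockdown lines. With both inhibitors TRMT10C was higher than vehicle, while ELAC2, at 7.18 FPKM, and HSD17B10, at 30.0 FPKM, were below it. For HSD17B10 the read ratio there was 0.794 (0.709 to 0.890), within 1.3-fold.

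The promoter window of TRMT10C, chr3:101561618-101561917 on the plus strand, is shown because it shares the CCGGAAG motif with the pair above, here once on each strand with a GGGCGG between.
TRMT10C: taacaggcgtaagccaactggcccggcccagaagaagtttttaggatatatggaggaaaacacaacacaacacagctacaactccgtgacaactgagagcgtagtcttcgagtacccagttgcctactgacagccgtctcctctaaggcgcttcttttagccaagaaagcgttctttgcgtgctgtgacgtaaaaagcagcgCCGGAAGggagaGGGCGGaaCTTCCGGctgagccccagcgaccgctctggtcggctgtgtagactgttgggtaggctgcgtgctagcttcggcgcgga
It holds neither CACGTG nor CCAAT.

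TRMT5 makes 1-methylguanosine next to the anticodon of nuclear and mitochondrial tRNAs, a mark that prevents frameshifts. TRMT5 (ENSG00000126814, chr14:60971451-60981358, minus strand) was at 10.9 FPKM in the vehicle library, 15.7 with SP2509, 8.80 with UNC0642 and 5.58 with both inhibitors. It was the 1 member that was higher than vehicle with SP2509, by 0.50 on the log2 scale, and it was lower than vehicle with the combination, by 0.85. The read ratio to vehicle was 1.45 (1.34 to 1.57) with SP2509 and 0.514 (0.461 to 0.572) with both. In the shLSD1 line it went from 7.62 to 8.50 FPKM and in the shG9a line from 7.66 to 6.58, both within 1.3-fold. The annotated gene overlaps SLC38A6 on the other strand by 245 bases at its start. SLC38A6 lay between 1.28 and 3.01 FPKM and was lower with SP2509, by 0.59, where TRMT5 was higher. None of the 6 motifs was in the RefSeq window of TRMT5, chr14:60981641-60981940, which says only that these letters are not there. That window lies wholly before the gene start listed above and does not cover it.

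TRMT1, which makes dimethylguanosine in cytosolic and mitochondrial tRNAs, was within 1.3-fold of vehicle in all 3 inhibitor libraries and past it in both knockdown lines. TRMT1 (ENSG00000104907, chr19:13104902-13117567, minus strand) was at 12.2 FPKM in the vehicle library, 10.5 with SP2509, 13.0 with UNC0642 and 14.5 with both. It went from 9.16 to 15.0 FPKM with Dox in the shLSD1 line and in the shG9a line from 10.2 to 18.8 FPKM, at read ratios of 1.64 (1.47 to 1.83) and 1.85 (1.67 to 2.05). With WDR4, at 0.82, its 0.83 in the shG9a line was at the top of the 9 log2 fold changes there; by read ratio, or with a pseudocount of 0.1, WDR4 stood above it. TRMT1L, the related gene outside the group, was at 9.27 FPKM with vehicle and 1.26 with SP2509, so that TRMT1 stood at 1.31 times TRMT1L with vehicle and 8.29 times with SP2509 (counting interval 6.76 to 10.2).

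NSUN2 places 5-methylcytidine in many cytosolic and mitochondrial tRNAs, and its level rests on 3042 to 8173 reads a library, the most of any member. NSUN2 (ENSG00000037474, chr5:6599239-6633291, minus strand) was at 62.3 FPKM in the vehicle library, 43.1 with SP2509, 78.1 with UNC0642 and 87.9 with both inhibitors. It was therefore below vehicle with SP2509 alone and above it in both libraries that held UNC0642. The read ratio was 0.691 (0.664 to 0.720) with SP2509, 1.25 (1.21 to 1.298) with UNC0642 and 1.41 (1.36 to 1.46) with both. It went from 31.1 to 42.5 FPKM in shLSD1 cells and in the shG9a line from 33.5 to 46.9 FPKM. TRDMT1 (ENSG00000107614, chr10:17142254-17202054, minus strand), a 5-methylcytidine enzyme of the anticodon loop also known as DNMT2, had 0 reads with vehicle and 1 read in each of the other 3 inhibitor libraries. A count of 0 allows up to 0.0364 FPKM in the vehicle library at 3 reads, and no direction can be given. TRDMT1 has no row in the knockdown table and did not pass the 1 FPKM filter, so every count of fold changes here is over the other 9 genes.

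METTL1 and WDR4 form the complex that makes 7-methylguanosine in the variable loop of tRNAs, with METTL1 as the catalytic subunit and WDR4 as the partner that binds the tRNA with it. WDR4 (ENSG00000160193, chr21:42843094-42879568, minus strand) was at 10.03 FPKM in the vehicle library, 2.79 with SP2509, 8.33 with UNC0642 and 3.29 with both inhibitors. Both libraries that held SP2509 were low, and their counting intervals did not reach that of vehicle. Its read ratio to vehicle was 0.278 (0.228 to 0.338) with SP2509 and 0.328 (0.271 to 0.396) with the combination, the lowest of the 9 genes in both. In the knockdown lines WDR4 went the other way with Dox, from 3.68 to 5.40 FPKM for shLSD1 and from 4.06 to 7.91 for shG9a. METTL1 (ENSG00000037897, chr12:57768471-57772793, minus strand) was at 7.04 FPKM in the vehicle library, 6.81 with SP2509, 5.03 with UNC0642 and 6.71 with both. Its read ratio with SP2509 was 0.968 (0.823 to 1.14) and with both inhibitors 0.954 (0.808 to 1.13), so the depth did not show a difference in either. With Dox it went from 3.31 to 6.17 FPKM in shLSD1 cells and in the shG9a line from 4.04 to 5.46 FPKM.

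The ratio of WDR4 to METTL1 was accordingly lower in both libraries with SP2509 than in the other 6. It was 1.42 with vehicle (counting interval 1.22 to 1.66) and 1.65 with UNC0642 (1.41 to 1.95), and it was 0.409 with SP2509 (0.332 to 0.502) and 0.490 with both (0.400 to 0.598). In the shLSD1 line it was 1.11 without Dox and 0.876 with it, with intervals that overlap, and in the shG9a line 1.01 and 1.45. With SP2509 the log2 fold changes of WDR4 and METTL1 were -1.54 and -0.04, whereas those of TRMT6 and TRMT61A, -0.71 and -0.60, lay 0.11 apart. METTL1 overlaps EEF1AKMT3 on the other strand over 1302 bases and CYP27B1 on its own strand over 516 bases, and without strand reads of overlapping genes cannot be told apart. EEF1AKMT3 was between 3.06 and 6.59 FPKM, within 1.3-fold of its control in each comparison, and CYP27B1 went from 0.0742 FPKM with vehicle to 2.34 with both inhibitors.

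**Figure D3:**
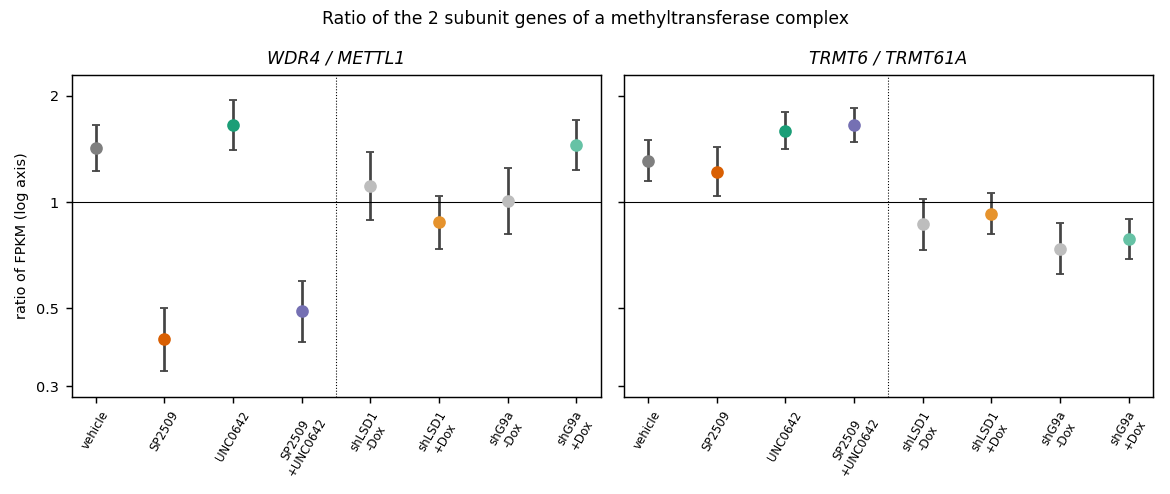
Ratio of the FPKM of WDR4 to METTL1 (left) and of TRMT6 to TRMT61A (right) on a log axis in each of the 8 libraries; points are single libraries, bars are 95% counting intervals and the dotted line separates the tables. The WDR4 to METTL1 ratio is 0.409 and 0.490 in the 2 libraries with SP2509 and 0.876 or more in the other 6.

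The promoter window of WDR4, chr21:42879490-42879789 on the minus strand, is shown because WDR4 had the largest differences of the group.
WDR4: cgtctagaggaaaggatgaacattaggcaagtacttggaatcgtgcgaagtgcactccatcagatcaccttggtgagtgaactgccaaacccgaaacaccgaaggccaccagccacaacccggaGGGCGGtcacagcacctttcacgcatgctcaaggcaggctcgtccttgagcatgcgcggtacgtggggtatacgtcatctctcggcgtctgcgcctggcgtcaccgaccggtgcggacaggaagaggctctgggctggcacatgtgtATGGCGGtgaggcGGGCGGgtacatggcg
It holds ATGGCGG once and GGGCGG on 2 occasions, and it lacks the CACGTG and CCGGAAG of the TRMT6 and TRMT61A windows.

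Of the 10 members, 6 have a gene on the other strand that starts within 1000 bases of their own start and runs the opposite way, overlaps at the start included (TRMT5 with SLC38A6), an arrangement found for 19.4% of 17306 protein-coding genes listed. Starts here are those given with the expression values, not the RefSeq starts of the promoter windows. For TRMT1 and TRMT5 the choice of start changes the distance to the neighbour. WDR4 and NDUFV3, a subunit gene of respiratory complex I, start 76 bases apart. NDUFV3 was at 5.54 FPKM in the vehicle library, 2.12 with SP2509, 3.70 with UNC0642 and 2.77 with both, and both genes were lowest with SP2509. TRMT6 and MCM8, a helicase gene of DNA repair, start 94 bases apart. The log2 fold changes of MCM8 were -0.43 with SP2509, 0.08 with UNC0642, 0.46 with both, 0.37 in the shLSD1 line and 0.42 in the shG9a line, the same 5 signs as TRMT6. TRMT1 and NACC1 lie 536 bases apart, and NACC1 went from 17.2 to 9.68 FPKM with SP2509, where TRMT1 was within 1.3-fold. The log2 fold changes of NACC1 were -0.77 with SP2509, 0.28 with UNC0642 and 0.56 with both. They were 0.45 in the shLSD1 line and 0.81 in the shG9a line, so all 5 signs were those of TRMT1. The other pairs were TRMT5 with SLC38A6, NSUN2 with SRD5A1 and TRMT61A with the antisense gene AL133367.1, which stayed below 1 FPKM. SRD5A1 was at -0.24 with SP2509, 0.27 with UNC0642, -0.03 with both, 0.56 in the shLSD1 line and -0.03 in the shG9a line. With both inhibitors and in the shG9a line its sign was opposite to that of NSUN2. How often such neighbours share all 5 signs was not counted over all genes.

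The combination was also set beside each inhibitor alone. Against SP2509, 5 of the 9 genes were higher with both inhibitors and 1 was lower, where 41.8% and 24.8% of all genes were. The higher ones were TRMT6 by 1.32 on the log2 scale, NSUN2 by 1.01, TRMT61A by 0.89, TRMT10C by 0.77 and TRMT1 by 0.44, and the lower one was TRMT5. Against UNC0642, 1 was higher, TRMT6 by 0.41, and 2 were lower, WDR4 by 1.12 and TRMT5 by 0.57, where 27.7% and 27.1% of all genes were. WDR4 was within 1.3-fold of its SP2509 level in the combination, with a read ratio of 1.18 (0.929 to 1.497). TRMT5 with both inhibitors was below each single inhibitor and TRMT6 above each.

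The 2 uninduced lines give the one pair of libraries within a table that no inhibitor or Dox separates. There 0 of the 9 genes were past 1.3-fold in either direction, against 3.04% of all genes higher and 4.51% lower in the shG9a line. Their log2 differences, shG9a minus shLSD1, ran from 0.01 for TRMT5 to 0.35 for TRMT61B. All 9 genes were lower in both uninduced lines than in the vehicle library, as were 54.1% of 13382 genes. No inhibitor or Dox separates these libraries either, but they stand in separate tables. WDR4 was at 10.03 FPKM with vehicle against 3.68 and 4.06 in the uninduced lines, and TRMT5 at 10.9 against 7.62 and 7.66.

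The same enzyme was addressed by a chemical inhibitor and by an shRNA, and the members' values in both are set side by side. Of the 9 genes, 8 were above their control in the shLSD1 line and below it with SP2509, as were 47.3% of the 11769 genes measured in both comparisons. Of these 8, TRMT6, TRMT61A, NSUN2 and WDR4 passed 1.3-fold in both, 4 genes, and centring on the median of well-expressed genes left 2 of them past it, TRMT6 and TRMT61A. At 1.3-fold in both, 14.4% of all genes were higher with the shRNA and lower with SP2509, 6% the reverse, 2.53% higher in both and 2.07% lower in both. For G9a, 1 member, TRMT10C, was past 1.3-fold upwards with both the shRNA and UNC0642, and 0 members were past it in opposite directions. The corresponding shares of 11906 genes were 4.79% higher in both, 4.1% higher with the shRNA and lower with UNC0642, and 5.95% lower with the shRNA and higher with UNC0642.

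Other genes, most of them acting on tRNA, were taken from fixed lists that were likewise drawn up with earlier results known. For every list below, the shares of all genes were 39.9% lower and 21% higher with SP2509. They were 16.9% lower and 18.2% higher with UNC0642, and 31.7% lower and 31.4% higher with both inhibitors. With Dox they were 24.8% higher and 12.3% lower in the shLSD1 line, and 32.9% higher and 17.6% lower in the shG9a line. Nothing is read from the distance between the lists' counts and these shares. Of 28 other tRNA methyltransferases and partners, 26 passed the filter with SP2509, of which 16 were lower and 0 higher, with a median of -0.59. TRMT1L was lower there by 2.18 on the log2 scale and TYW3, an enzyme of wybutosine synthesis, by 0.84. MRM1, which was placed in this list although it methylates mitochondrial ribosomal RNA, went from 8.35 to 1.21 FPKM. With Dox, 4 of 25 were higher and 0 lower in the shLSD1 line and 8 higher and 1 lower in the shG9a line, MRM1 from 3.37 to 9.66 FPKM and from 3.94 to 11.1. With both inhibitors 3 were higher and 11 lower and the median was -0.30, whereas that of the members was 0.24. There TARBP1, a ribose methyltransferase, went from 14.2 to 5.46 FPKM and TRMT11, which methylates guanosine, from 13.9 to 5.59. METTL2A and METTL2B of this list are near-identical copies whose reads may be split between them.

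Of the 12 pseudouridine synthases, which isomerise uridine, 11 were lower with SP2509 and 0 higher, and PUS1 went from 8.10 to 2.63 FPKM. In the knockdown lines 4 and 7 of the 12 were higher with Dox and 0 were lower in either. Of 36 other tRNA modification enzymes, 19 of the 34 that passed were lower with SP2509 and 2 higher, ADAT1, a tRNA adenosine deaminase, going from 8.37 to 1.49 FPKM, and with Dox 12 of 34 and 14 of 35 were higher and 1 was lower in each line. With both inhibitors 17 of 34 were lower and 7 higher, with a median of -0.36. There YRDC, which starts the synthesis of threonylcarbamoyladenosine, went from 8.71 to 29.4 FPKM, whereas TYW1 went from 8.08 to 3.02 and QTRT1 from 10.4 to 4.56. The list of 5 RNA demethylases of the AlkB family, which take methyl groups off RNA, was not limited to enzymes of tRNA. Of these, 2 were lower and 0 higher with SP2509, 1 was lower with UNC0642, and 2 were lower and 1 higher with both inhibitors. The higher one was ALKBH5, from 21.0 to 47.0 FPKM. In this list 0 were past 1.3-fold with Dox in the shLSD1 line and 1 was lower in the shG9a line, ALKBH5, which removes 6-methyladenosine, from 37.6 to 25.6 FPKM.

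The aminoacyl-tRNA synthetases charge tRNAs with their amino acids. Of the 20 cytosolic ones, 15 were lower with SP2509, 14 with UNC0642 and 11 with both inhibitors, 0 were higher in any of these, and the medians were -0.96, -0.51 and -0.42. With Dox, 3 were higher and 1 lower in the shLSD1 line, and 4 were higher and 11 lower in the shG9a line. AARS1, which charges alanine tRNAs, went from 173 to 33.2 FPKM with SP2509, to 54.3 with UNC0642 and from 183 to 47.5 in the shG9a line. WARS1, for tryptophan, went from 80.2 to 17.3 FPKM in the shG9a line. Of the 17 mitochondrial ones 16 passed, and 10 were higher and 0 lower in the shG9a line, 5 higher and 0 lower in the shLSD1 line, 10 lower and 1 higher with SP2509, 1 lower and 0 higher with UNC0642 and 9 lower and 0 higher with both inhibitors. MARS2, for methionine, went from 7.00 to 2.01 FPKM with SP2509 and from 2.20 to 5.03 in the shLSD1 line.

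**Figure D4:**
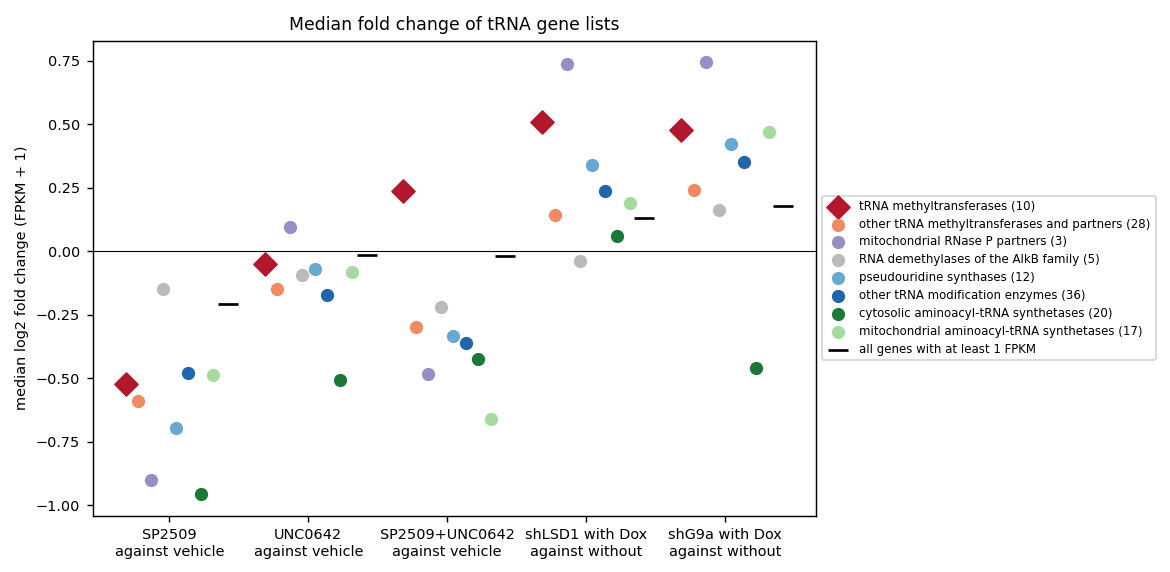
Median log2 fold change (vertical axis, FPKM + 1) of the tRNA methyltransferase group (red diamonds) and of 7 other gene lists (circles) in the 5 comparisons. The legend gives the number of genes, and the black dash is the median of all genes with at least 1 FPKM. Medians are over the genes that passed the filter, and the AlkB list is not limited to enzymes of tRNA. The group lies at -0.52 with SP2509 and at 0.51 and 0.48 in the knockdown lines, and the cytosolic synthetases are at -0.46 in the shG9a line.

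Among 6036 genes with a mean of at least 5 FPKM in each table, the 3 whose 5 log2 fold changes lay nearest to the members' median, by root mean square distance and members left out, were LSM4 at 0.08, ZDHHC16 at 0.08 and SURF6 at 0.08. LSM4 is a subunit of the ring that binds U6 RNA, ZDHHC16 a palmitoyltransferase and SURF6 a nucleolar protein. LSM4 was at -0.45, 0.09, 0.27, 0.47 and 0.50 with SP2509, UNC0642, both, shLSD1 and shG9a. Of the members with that level, TRMT5 and WDR4 were farthest from the median that they themselves enter, at 0.76 and 0.87.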

How the data were processed

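Total RNA of 8 Kyse510 libraries, 1 per condition, was sequenced as paired reads. Per the methods, reads of low quality or with contamination were discarded, and the authors aligned what remained to GRCh38 (Ensembl release 87) and deposited FPKM per gene in 2 tables of 31582 and 28942 genes; the aligner, counter and strand setting are not given in the sources used here. Groups came from the sample labels.

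From the deposited FPKM, log2((FPKM + 1) with treatment / (FPKM + 1) in the control) was computed with Python 3.11.15, numpy 2.4.6, pandas 2.3.3 and scipy 1.17.1. The limit was 1.3-fold with at least 1 FPKM in at least 1 of the 2 libraries. With 1 library a condition and members chosen with results known, no test was run and no p is given. Whole reads were recovered from the FPKM steps of single-exon genes (GENCODE release 44 exons), with 99.95% or more of the low values within 0.001 of whole reads, and gave, with the smallest gene length that made all of a gene's values whole, exact conditional binomial (ratios) and Poisson (levels) 95% intervals. The script was tested on simulated data.

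The members and all lists were chosen with earlier results of these data known. Named genes were all members, KDM1A and EHMT2, the cell type markers, neighbours of the members, the 3 genes nearest to the members' median and, per other list and comparison, examples among the up to 3 largest changes past the limit with at least 5 FPKM in a library. Neighbours, TRMT1L as a relative of TRMT1 and PRORP as a gene of mitochondrial RNase P were added for their position or relation. Promoter windows came from RefSeq (GRCh38.p14). Alternatives were a pseudocount of 0.1, a 2-fold limit, a 5 FPKM filter, no filter, centring on the median of well-expressed genes (5 FPKM or more in both libraries) and a mean of both uninduced lines as control.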

Additional observations from a re-analysis of the deposited data

Results flagged for a closer look

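TRMT5 moved in opposite directions with Dox in the 2 knockdown lines. Its log2 fold change was -0.19 in the shG9a line, from 7.66 to 6.58 FPKM, and 0.14 in the shLSD1 line, from 7.62 to 8.50 FPKM. Each line has 1 library with Dox and 1 without, the difference between the lines was not tested, and both values were within 1.3-fold.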

How the results depend on the processing

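With a limit of 2-fold in place of 1.3-fold, 8 of the 10 counts of members moved: 0 were higher and 1 lower (WDR4) with SP2509, 0 and 0 with UNC0642, 0 and 1 (WDR4) with both inhibitors, and 0 were higher in the shLSD1 line and 0 in the shG9a line. Centring on the median of well-expressed genes (5 FPKM or more in both libraries) lowered the count in the shG9a line from 7 to 4 higher, that in the shLSD1 line from 7 to 5 and that with both inhibitors from 3 to 2, and turned METTL1 with SP2509 from -0.04 to 0.05, within 1.3-fold in both. It left 2 of 4 genes past 1.3-fold both upwards in the shLSD1 line and downwards with SP2509. A pseudocount of 0.1, a filter at 5 FPKM and no filter left all 10 counts within 1.5 times their value, as did the mean of both uninduced lines as control for the 4 counts it bears on. No member value past 1.3-fold changed sign under any of these. That range leaves room for single calls to change. METTL1 in the shG9a line was 1.28-fold higher with the pseudocount of 1 FPKM, whereas its read ratio, which has no pseudocount, was 1.35 (1.11 to 1.65). No paired analysis was possible because each condition is 1 library, and for the same reason no library was left out. WDR4 rests on 136 to 430 reads, METTL1 on 154 to 318 and NSUN2 on 3042 to 8173, so the smaller changes of the first pair are the least certain.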
